A study of Rattus norvegicus with 4 samples.

Results

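The 39 genes described here encode the contractile filaments of skeletal muscle, the proteins that anchor them, the machinery that releases and takes up calcium, and a few muscle enzymes of energy supply. They were taken by symbol, with case ignored, from a list of names, and all 39 had a row among the 24005 genes of the count table. For the description 14 were placed with fast fibres, 9 with slow fibres, 2 with developing muscle and 14 with all fibre types. Of their FPKM summed over the 4 libraries, 70.9% was in a single library, 1 of the 2 healthy controls.

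In skeletal muscle, thick filaments of myosin pull on thin filaments of actin inside repeating units called sarcomeres. An action potential opens the calcium release channel of the sarcoplasmic reticulum, calcium binds troponin, and a calcium pump then ends the contraction. Fast and slow fibres build the same structure from different isoforms of myosin, troponin and other parts. Cartilage itself has no sarcomeres, but muscle, tendon, fat and bone lie close to it in a joint.

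Cartilage RNA came from male Sprague Dawley rats, 8 to 12 weeks old and weighing between 140 and 230 g. The osteoarthritis group had 2 libraries, labelled osteoarthritis for disease state and XGS for treatment, which stands for Xiaogu San, a preparation obtained from a hospital of Chinese medicine. The series text says that the disease was induced with monosodium iodoacetate, a blocker of glycolysis. The control group had 2 libraries, labelled healthy and control, and the design text speaks of normal mice for them although each library is labelled rat. Disease and preparation cannot be told apart in this comparison, and no label states whether different animals gave the 2 libraries of a group, so p-values measure the spread between these libraries, which may be technical.

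Total counts were 24492412 and 25994449 in the osteoarthritis libraries and 28156020 and 28270779 in the control libraries. The libraries differed in markers of tissues around cartilage. Summed over 12 adipocyte genes, the level was 12638 and 78.4 FPKM in osteoarthritis replicates 1 and 2, and 2299 and 800.0 FPKM in control replicates 1 and 2. FPKM is the deposited count per length of the gene and per total count of the library. Over 8 tendon and ligament genes the sums were 162 and 2711 FPKM in osteoarthritis and 853 and 778.5 FPKM in control. Bone genes, 10 of osteoblasts and osteocytes, summed to 41.5 and 193 FPKM in osteoarthritis and to 729 and 2735 FPKM in control. Of these 10, 8 had both osteoarthritis values below both controls, against 26.5% of all genes tested. Both were counted on CPM scaled by TMM, edgeR's library scaling. A marrow list of erythroid and neutrophil genes summed to at most 1887 FPKM in osteoarthritis and at least 57025 FPKM in control. The bone and marrow sums thus separated the groups, whereas the adipocyte and tendon sums overlapped. Over 11 chondrocyte genes the sums were 1096 and 2417 FPKM in osteoarthritis and 6669 and 7687 FPKM in control. The chondrocyte sum thus separated the groups as well. Each of the 11 had counts in every library, but the genes did not move together. In osteoarthritis replicate 2, Comp alone had 1581 FPKM, and that library was highest for 3 of the 11 genes. Col2a1 had 827 and 68.7 FPKM in osteoarthritis and 2813 and 4953 FPKM in control.

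Summed over the 39 genes, the level was 427 and 536 FPKM in osteoarthritis replicates 1 and 2, and 3331 and 408 FPKM in control replicates 1 and 2. Control replicate 1 stood far above the other control, which was close to the osteoarthritis libraries. As a share of all counts, the genes took 0.0713% and 0.0913% in osteoarthritis and 0.474% and 0.0579% in control, where the 95% Wilson interval of the largest share ran from 0.471% to 0.476%. Such intervals cover counting error only. Tpm3, a slow tropomyosin whose gene also makes isoforms outside muscle, gave 217, 189, 248 and 209 FPKM in that order of libraries. It made up much of the sum wherever the other genes were low. Without it the sums were 210.0 and 346 FPKM in osteoarthritis and 3083 and 199 FPKM in control, and control replicate 1 exceeded control replicate 2 by 15.5-fold. In bulk tissue, fewer cells of a type and less RNA per cell cannot be told apart.

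**Figure D1:**
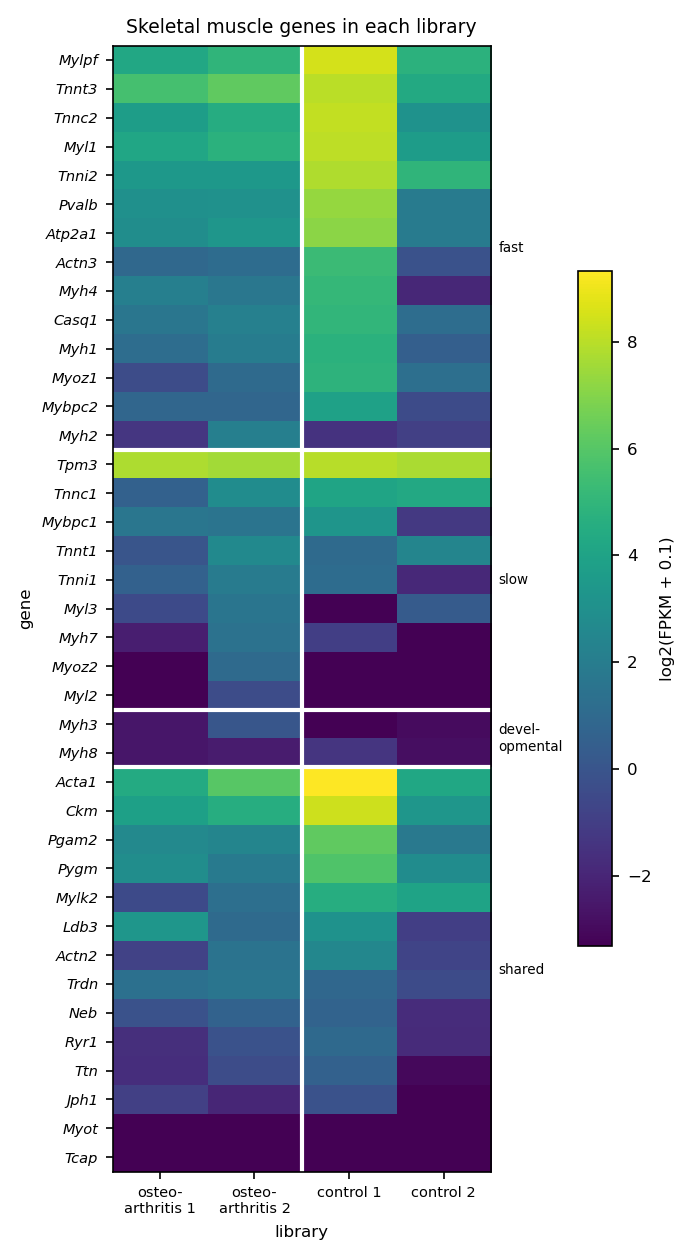
Level of each of the 39 genes (rows, by fibre class and mean level) in each library (columns), as log2(FPKM + 0.1) in colour. Control replicate 1 is the brightest column for most fast and shared genes, Tpm3 is bright in all 4 columns, and several slow genes are brightest in osteoarthritis replicate 2.

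Of the 37 genes with a count, 26 had their highest level in control replicate 1, 9 in osteoarthritis replicate 2 and 1 each in osteoarthritis replicate 1 and control replicate 2. The classes differed in this. Control replicate 1 was highest for 13 of 14 fast genes and 10 of 12 shared genes with counts, whereas osteoarthritis replicate 2 was highest for 6 of 9 slow genes. Among all 15282 genes tested, control replicate 1 was highest for 20.7% and osteoarthritis replicate 2 for 21.0%. Osteoarthritis replicate 1 was highest for 39.4% and control replicate 2 for 18.9%. Fast genes summed to 138 and 206 FPKM in osteoarthritis and to 1901 and 115 FPKM in control. Shared genes summed to 64.6 and 111 FPKM in osteoarthritis and to 1150 and 57.0 FPKM in control. Slow genes with Tpm3 left out summed to 7.56 and 27.9 FPKM in osteoarthritis and to 31.1 and 27.1 FPKM in control, so that their libraries did not fall into the same order. Tnnc1, the slow troponin C, made up most of this sum in control replicate 2. Without it as well the sums were 6.13 and 21.0 FPKM in osteoarthritis and 14.2 and 7.04 FPKM in control, with osteoarthritis replicate 2 the highest.

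**Figure D2:**
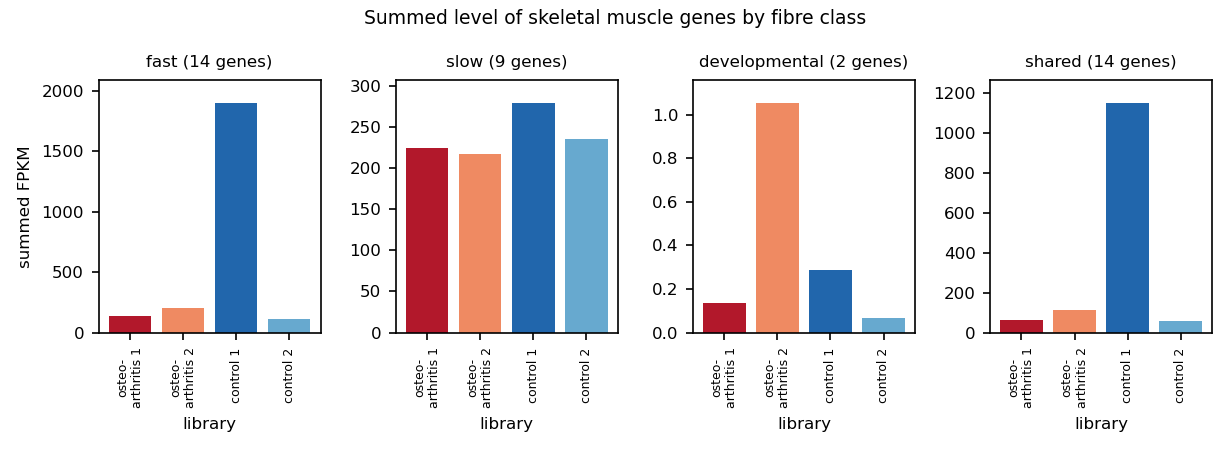
Summed FPKM (y axis, from 0, own scale in each panel) of the fast, slow, developmental and shared genes in each library (bars, 1 library each, no error). The fast sum is 1901 FPKM in control replicate 1 and at most 206 FPKM in the other 3 libraries, while the slow sum, most of it Tpm3, is between 217 and 279 FPKM throughout.

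The thick filament of fast fibres is built from the myosin heavy chains Myh1, Myh2 and Myh4 with the light chains Myl1 and Mylpf. Mylpf, the regulatory light chain, had 18.9 and 31.3 FPKM in osteoarthritis and 369 and 27.6 FPKM in control. Myl1, the essential light chain, had 17.9 and 26.7 FPKM in osteoarthritis and 273 and 12.7 FPKM in control. For both light chains control replicate 1 was an order of magnitude above the rest, and the other control fell within or below the osteoarthritis range. Myh4, the motor of the fastest fibres, had 4.29 and 3.18 FPKM in osteoarthritis and 34.2 and 0.165 FPKM in control. Myh1 had 2.19 and 3.92 FPKM in osteoarthritis and 26.8 and 1.31 FPKM in control. Both motors were highest in control replicate 1 and lowest in control replicate 2, with the osteoarthritis libraries between them. Myh2, the motor of fast oxidative fibres, was the exception among the fast genes, with 0.298 and 4.25 FPKM in osteoarthritis and 0.265 and 0.421 FPKM in control. Its high value was that of osteoarthritis replicate 2 alone. Mybpc2, the fast myosin binding protein, followed the main pattern at 1.68 and 1.71 FPKM in osteoarthritis and 14.9 and 0.642 FPKM in control. The myosin heavy chain genes are close paralogs, and the counting method is not given in the sources used here, so reads could be split between them.

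On the thin filament, Acta1, the skeletal actin, had 21.2 and 65.5 FPKM in osteoarthritis and 644 and 18.6 FPKM in control. The troponin complex, which makes the thin filament respond to calcium, has fast and slow forms of each subunit. Its fast calcium-binding subunit Tnnc2 had 12.9 and 22.8 FPKM in osteoarthritis and 289 and 8.50 FPKM in control. Tnnt3, the fast tropomyosin-binding subunit, had 48.2 and 74.7 FPKM in osteoarthritis and 263 and 20.3 FPKM in control. For these 3 genes the controls enclosed both osteoarthritis values. Tnni2, the fast inhibitory subunit, had 10.5 and 10.8 FPKM in osteoarthritis and 229.6 and 30.5 FPKM in control, so both osteoarthritis libraries lay below both controls. Neb, the giant protein along the thin filament, had 0.814 and 1.48 FPKM in osteoarthritis and 1.53 and 0.206 FPKM in control.

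At the Z disc, where thin filaments are anchored, Actn3, the fast actinin, had 1.86 and 2.11 FPKM in osteoarthritis and 39.5 and 0.814 FPKM in control. Myoz1, the fast myozenin, had 0.677 and 1.98 FPKM in osteoarthritis and 29.0 and 2.35 FPKM in control, with both osteoarthritis values below both controls. Actn2, the actinin of all fibres, had 0.458 and 2.76 FPKM in osteoarthritis and 5.74 and 0.505 FPKM in control. Its groups overlapped, as did those of Ttn, the giant elastic protein, which had 0.218 and 0.663 FPKM in osteoarthritis and 1.44 and 0.0197 FPKM in control. Ldb3, a Z disc linker, was the 1 gene highest in osteoarthritis replicate 1, with 9.94 and 1.94 FPKM in osteoarthritis and 8.74 and 0.417 FPKM in control. Myot and Tcap, also of the Z disc, were listed at 0 counts in all 4 libraries, and whether the counting could give them reads was not tested.

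Calcium handling genes held the same split between the controls. Atp2a1, the fast calcium pump, had 7.30 and 9.94 FPKM in osteoarthritis and 138 and 3.72 FPKM in control. Pvalb, the calcium buffer of fast fibres, had 8.07 and 8.21 FPKM in osteoarthritis and 163 and 3.75 FPKM in control. Casq1, the calcium store of the reticulum, had 2.98 and 4.49 FPKM in osteoarthritis and 31.9 and 2.20 FPKM in control. In all 3 the osteoarthritis libraries were close to each other and lay between the controls. Ryr1, the release channel, had 0.224 and 0.816 FPKM in osteoarthritis and 1.88 and 0.191 FPKM in control. Trdn, which couples the calcium store to that channel, differed from them with 2.43 and 2.90 FPKM in osteoarthritis and 1.74 and 0.653 FPKM in control, both osteoarthritis values above both controls. Jph1, which holds the reticulum to the surface membrane, was low, at 0.418 and 0.156 FPKM in osteoarthritis and 0.824 and 0 FPKM in control.

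Among the energy enzymes, Ckm, the muscle creatine kinase, had 14.8 and 23.9 FPKM in osteoarthritis and 327 and 9.78 FPKM in control. Pgam2, a glycolytic mutase, had 6.21 and 5.31 FPKM in osteoarthritis and 76.0 and 3.36 FPKM in control. Pygm, the muscle glycogen phosphorylase, had 7.30 and 3.44 FPKM in osteoarthritis and 57.2 and 6.95 FPKM in control. In each case 1 control carried most of the control mean.

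The excess of control replicate 1 over control replicate 2 was uneven between genes. Over the 14 fast genes its median was 21.0-fold and its range 0.631-fold for Myh2 to 208-fold for Myh4, where the lower control had 28 counts. Acta1 at 34.7-fold, Ckm at 33.4-fold and Tnnc2 at 34.1-fold were near each other. Mylk2, the kinase of skeletal myosin light chain, showed a ratio of only 1.45-fold, with 0.625 and 2.34 FPKM in osteoarthritis and 23.7 and 16.3 FPKM in control. Tnnc1, the slow troponin C, stood at 0.843-fold, with 1.43 and 6.97 FPKM in osteoarthritis and 16.9 and 20.0 FPKM in control. For Mylk2 and Tnnc1 both controls were therefore high, and all osteoarthritis values lay below them. The bone, marrow and chondrocyte sums split the groups in the same direction. Whether these tissues had a part in the Mylk2 and Tnnc1 values was not tested.

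The promoters of 4 genes are shown as examples of members whose level differed between libraries. In control replicate 1, Acta1 was 9.83-fold, Ckm 13.7-fold and Myh4 7.96-fold above the next library, while Myoz2 had counts in osteoarthritis replicate 2 alone. The sequences are RefSeq's on build GRCr8, from 250 bases before to 50 bases after the start of transcription, 5′ to 3′ on the gene's strand. Acta1 lies at chr19:68784145-68784444 on the minus strand, Ckm at chr1:88189211-88189510 on the plus strand, Myh4 at chr10:52421898-52422197 on the plus strand and Myoz2 at chr2:213852729-213853028 on the minus strand. Capitals mark matches on either strand to the E-box CANNTG, which myogenic regulators bind, to the CArG box of serum response factor, to the MEF2 site and to the TATA box.
Acta1: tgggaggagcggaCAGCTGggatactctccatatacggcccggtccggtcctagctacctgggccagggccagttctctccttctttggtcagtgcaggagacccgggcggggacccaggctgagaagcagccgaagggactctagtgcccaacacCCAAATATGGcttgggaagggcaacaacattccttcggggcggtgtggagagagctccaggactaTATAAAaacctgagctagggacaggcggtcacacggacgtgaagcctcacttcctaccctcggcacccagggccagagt
Ckm: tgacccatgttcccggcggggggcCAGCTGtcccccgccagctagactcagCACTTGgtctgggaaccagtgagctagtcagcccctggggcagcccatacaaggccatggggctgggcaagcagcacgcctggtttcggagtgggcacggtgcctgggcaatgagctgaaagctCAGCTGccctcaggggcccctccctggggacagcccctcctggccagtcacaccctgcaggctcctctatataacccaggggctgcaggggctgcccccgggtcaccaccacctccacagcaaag
Myh4: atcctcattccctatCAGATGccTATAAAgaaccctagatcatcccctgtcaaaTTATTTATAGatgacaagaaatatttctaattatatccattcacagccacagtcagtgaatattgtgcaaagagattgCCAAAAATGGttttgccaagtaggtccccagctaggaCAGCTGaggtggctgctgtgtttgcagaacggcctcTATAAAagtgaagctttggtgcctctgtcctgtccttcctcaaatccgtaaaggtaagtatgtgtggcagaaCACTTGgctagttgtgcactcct
Myoz2: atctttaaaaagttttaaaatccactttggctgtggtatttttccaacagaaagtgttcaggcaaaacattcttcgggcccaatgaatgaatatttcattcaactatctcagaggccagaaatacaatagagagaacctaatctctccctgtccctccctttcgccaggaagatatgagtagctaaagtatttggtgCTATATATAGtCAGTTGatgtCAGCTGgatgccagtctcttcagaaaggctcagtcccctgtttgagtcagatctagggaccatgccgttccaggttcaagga
Acta1 held 1 CArG box and Myh4 held 1, with 1 MEF2 site each in Myh4 and Myoz2. The E-box was found 1 time in Acta1, 3 times in Ckm and Myh4 each, and 2 times in Myoz2. In Myh4, 1 of 3 TATA box matches (letters TATAAA) lies inside the MEF2 match. Of the 39 genes, 31 matched the promoter table by symbol, with 34 promoters. A CArG box was in 4 of the 34 (11.8%) against 1.64% of all 33469 promoters, a MEF2 site in 6 (17.6%) against 3.29%, a TATA box in 10 (29.4%) against 14.2% and an E-box in 29 (85.3%) against 72.1%. These matches describe letters in a window and no binding was measured.

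Slow fibre and developmental genes had another distribution, with osteoarthritis replicate 2 the highest library for most. Myh7, the slow myosin motor, had 0.109 and 2.61 FPKM in osteoarthritis and 0.415 and 0 FPKM in control, from 16, 407, 70 and 0 counts. Myoz2, the slow myozenin, had 55 counts and 1.99 FPKM in osteoarthritis replicate 2 and 0 counts in the other 3 libraries, where a count of 0 allows up to 0.115 FPKM in osteoarthritis replicate 1 and 0.1 and 0.0996 FPKM in control. Myl2, the slow regulatory light chain, had 11 counts in osteoarthritis replicate 2 and 0 in the other 3 libraries. All 3 genes pointed to the same library. Myl3, the slow essential light chain, had 0.617 and 2.90 FPKM in osteoarthritis and 0 and 1.14 FPKM in control. Tnni1, the slow inhibitory troponin, had 1.42 and 3.80 FPKM in osteoarthritis and 2.12 and 0.176 FPKM in control. Tnnt1, the slow tropomyosin-binding troponin, had 0.926 and 6.23 FPKM in osteoarthritis and 1.99 and 5.39 FPKM in control. None of these 3 had groups that stood apart. Mybpc1, the slow myosin binding protein, which fast fibres also use, was instead highest in control replicate 1, with 3.06 and 2.78 FPKM in osteoarthritis and 9.67 and 0.332 FPKM in control. Myh3, the embryonic myosin, had 10 and 151 counts in osteoarthritis and 0 and 5 counts in control. Myh8, the perinatal myosin, had between 6 and 44 counts in every library. Osteoarthritis replicate 2 also had the highest summed level of the tendon and ligament list (2711 FPKM, against at most 853 FPKM in the other 3 libraries), and its part in the slow gene values was not tested.

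Isoform make-up does not depend on how libraries are scaled. The 6 myosin heavy chains together reached 7.03 and 15.03 FPKM in osteoarthritis and 61.9 and 1.96 FPKM in control. Myh4 was 61.1% and 21.2% of that sum in osteoarthritis replicates 1 and 2 and 55.2% and 8.39% in control replicates 1 and 2. Myh7 was 1.55% and 17.4% in osteoarthritis and 0.670% and 0% in control, where 0 of 332 counts allows up to 1.14% by the Wilson interval. Osteoarthritis replicate 1 and control replicate 1 were therefore alike in having Myh4 as the largest share, with Myh1 next. Control replicate 2 was mostly Myh1, with 21.4% Myh2, while osteoarthritis replicate 2 spread over Myh1, Myh2, Myh4 and Myh7. Myh3 made up 6.40% in osteoarthritis replicate 2 and at most 1.49% in the other 3 libraries. The fast share of troponin I was 88.1% and 74.0% in osteoarthritis and 99.1% and 99.4% in control. That of troponin T was 98.1% and 92.3% in osteoarthritis and 99.2% and 79.0% in control. For troponin C it was 90.1% and 76.6% in osteoarthritis and 94.5% and 29.8% in control. Tnnc1 was high in both controls, and the low share was that of the control with 8.50 FPKM of Tnnc2. Among the 4 pairs, troponin I had groups that did not overlap. Among the myosin heavy chains this held for the share of Myh7 and for that of Myh1. The Myh1 share was 31.2% and 26.1% in osteoarthritis and 43.2% and 66.7% in control. The Myh7 share of osteoarthritis replicate 1 rests on 16 of 1035 counts. Its Wilson interval, 0.954% to 2.50%, overlaps that of control replicate 2. No test was run on these shares, because the smallest p of an exact permutation test of 2 against 2 is 0.333. For any single share, groups that do not differ would stand apart with that probability, so these separations are not read as differences.

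**Figure D3:**
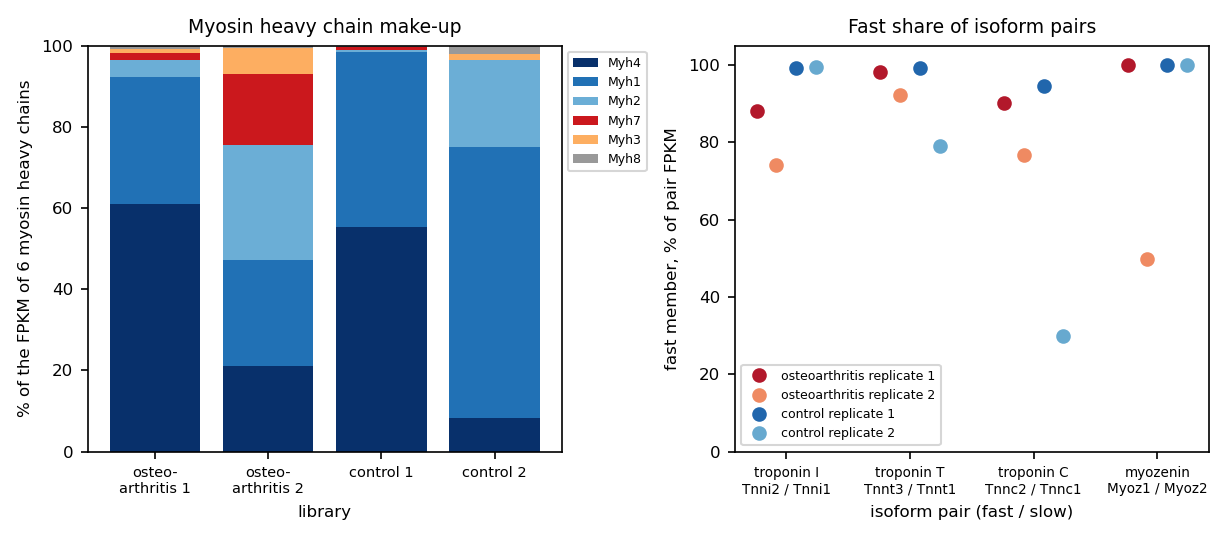
Left, share of each myosin heavy chain in the summed FPKM of all 6 (y axis, %) for each library (bars); right, share of the fast member in the FPKM of 4 fast and slow isoform pairs (y axis, %), 1 point a library. Osteoarthritis replicate 2 has the largest Myh7 share (17.4%) and the lowest fast share of myozenin, 49.9%.

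The comparison set the libraries labelled osteoarthritis and XGS against those labelled healthy and control, so it is not one of disease alone. After a filter on low counts, 35 of the 39 genes were tested, since Myl2, Myoz2, Myot and Tcap did not pass. In the quasi-likelihood test of edgeR, with Benjamini-Hochberg adjustment over 15282 genes at 0.05, 0 members were higher and 0 lower, as were 0% of all genes in each direction. Before adjustment, 0 members higher and 4 lower had a p under 0.05, against 12.2% and 11.2% of all genes. DESeq2 called 0 members higher, against 7.24% of all genes, and 6 lower, against 8.26%. The 6 were Mylk2, Tnni2, Mylpf, Myoz1, Pvalb and Pygm. edgeR's likelihood ratio test called 0 higher (6.31% of all genes) and 3 lower (6.40% of all genes), Mylk2, Tnni2 and Pygm. limma-voom and limma-trend called 0 members, and 0% of all genes, in either direction. With no filter on low counts, the quasi-likelihood test called 0 members higher (3.35% of all genes) and 5 lower (3.72% of all genes).

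On CPM scaled by TMM, edgeR's library scaling, 2 of 35 members, Myh3 and Trdn, had both osteoarthritis values above both controls, against 30.0% of all genes tested. Both were below both controls for 6 members, Tnni2, Myoz1, Tnnc1, Tpm3, Mylk2 and Pygm, against 26.5% of all genes. Tpm3 and Pygm overlapped on the FPKM scale. The 6 of 35 below both controls are no larger a share than among all genes, although 27 of 35 members had a negative log2 fold change. The median log2 fold change, osteoarthritis over control, was -2.09 over the 35 members and 0.15 over all genes tested. By class it was -2.81 for 14 fast genes, -0.88 for 12 shared genes and -0.01 for 7 slow genes. The sizes depended on the tool, since limma-voom gave -0.94 over the members and -1.56 for fast genes, and limma-trend with a pseudocount of 1 gave -0.44 and -1.42.

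Without control replicate 1 these medians were 1.08 over 36 members tested, 0.98 for fast, 1.47 for shared and 1.72 for slow genes. Of the 35 members, 19 went from a negative to a positive log2 fold change, and 27 were positive. Acta1 stood at -2.85 ± 1.57 (log2 fold change ± SE; edgeR adjusted p = 0.338) with all libraries and at 1.11 without control replicate 1. The same happened to Ckm, at -3.10 ± 1.47 with all libraries and 0.82 without, to Tnnc2, at -3.02 ± 1.48 and 0.92, and to Myh4, at -2.25 ± 1.82 and 4.26. Mylpf kept its sign, at -2.96 ± 1.18 with all libraries and -0.30 without. The sign of most fast and shared genes in this comparison turned on 1 control library. In a fit without 1 control, the lone control is assumed to vary like the osteoarthritis libraries. Calls in such a fit are therefore not read as results about the members.

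**Figure D4:**
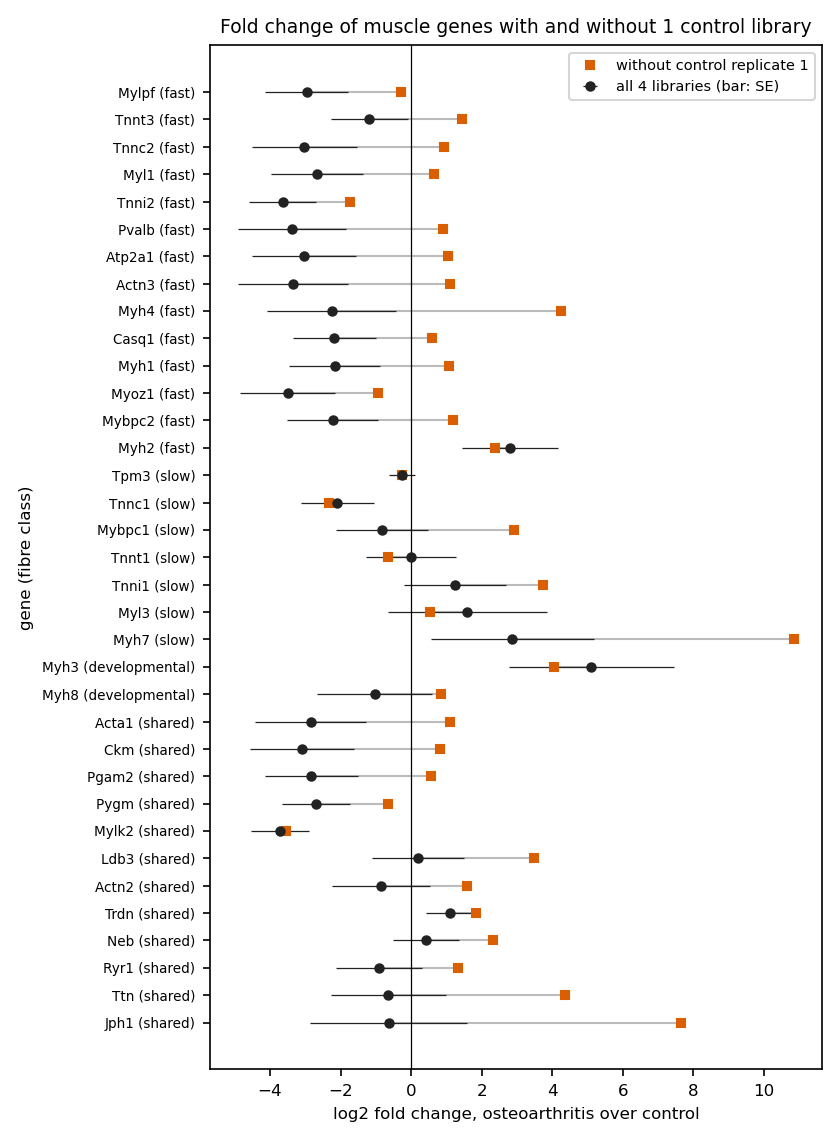
Log2 fold change, osteoarthritis over control (x axis), of the 35 tested genes (rows, by fibre class) with all 4 libraries (circles, bars are SE) and without control replicate 1 (squares). Of the 35 genes 19 cross from below 0 to above it, and Mylk2 stays at the same place.

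The smallest unadjusted p-values among the lower members were those of Mylk2, Tnni2 and Pygm. Mylk2 averaged 1.48 ± 1.21 FPKM in osteoarthritis and 20.0 ± 5.22 FPKM in control (SD, n = 2 each); its log2 fold change was -3.71 ± 0.83 (edgeR adjusted p = 0.109, DESeq2 adjusted p = 0.000101). Leaving out each library in turn kept its log2 fold change between -5.29 and -2.99. Tnni2 averaged 10.7 ± 0.211 FPKM in osteoarthritis and 130.1 ± 141 FPKM in control (SD, n = 2 each); its log2 fold change was -3.64 ± 0.96 (edgeR adjusted p = 0.129). Its log2 fold change without control replicate 1 was -1.72. For Pygm the log2 value was -2.69 ± 0.96 (edgeR adjusted p = 0.187), and -0.65 without control replicate 1. Of the 3, Mylk2 alone was about as far from 0 without that library.

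On the other side, the smallest unadjusted p-values were those of Myh3, Myh2 and Trdn. Myh3 stood at a log2 value of 5.11 ± 2.34 (edgeR adjusted p = 0.266), which rests on 151 of its counts in osteoarthritis replicate 2 and is sensitive to the 0 and 5 counts of the controls. Myh2 averaged 2.28 ± 2.80 FPKM in osteoarthritis and 0.343 ± 0.110 FPKM in control (SD, n = 2 each); its log2 fold change was 2.80 ± 1.37 (edgeR adjusted p = 0.289). Without osteoarthritis replicate 2 it was -0.52. Trdn stood at 1.11 ± 0.69 (edgeR adjusted p = 0.389), between 0.62 and 1.83 when each library was left out. Myh7 stood at 2.87 ± 2.30 (edgeR adjusted p = 0.506) and -1.16 without osteoarthritis replicate 2. Tpm3 stood at -0.26 ± 0.37 (edgeR adjusted p = 0.72), the smallest standard error among the 35 members.

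Members were called when an osteoarthritis library was left out, in fits where the lone sample is assumed to vary like the controls. Without osteoarthritis replicate 2, edgeR's quasi-likelihood test called 13 members lower, against 5.73% of all genes, and 0 higher, against 4.88%. On CPM scaled by TMM, the remaining osteoarthritis library was not below control replicate 2 in 6 of these, among them Ckm, Tnnc2 and Atp2a1. On FPKM the same held for Acta1 (21.2 against 18.6 FPKM) and Pygm (7.30 against 6.95 FPKM) as well. Without osteoarthritis replicate 1 it called 3 lower (6.95% of all genes), Mylk2, Tnni2 and Pygm, and 1 higher (8.16% of all genes), Myh2.

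Other muscle genes, outside the 39, differed in which library was highest. Of 14 genes of muscle energy supply, 10 were highest in control replicate 1, among them Mb, myoglobin, with 4.40 and 22.4 FPKM in osteoarthritis and 90.9 and 8.37 FPKM in control, and Eno3, the muscle enolase, with 11.2 and 15.4 FPKM in osteoarthritis and 69.7 and 6.40 FPKM in control. In both a single control was high, as for Ckm. Of 16 further excitation genes 7 were highest in that library, such as Cacng1, a subunit of the muscle calcium channel, with 0.695 and 1.03 FPKM in osteoarthritis and 12.9 and 0.689 FPKM in control. Atp2a2, the calcium pump of slow fibres and of most other cells, was not, with 52.8 and 80.4 FPKM in osteoarthritis and 33.9 and 31.4 FPKM in control. Jph2, a relative of Jph1, had 18.1 and 33.9 FPKM in osteoarthritis and 11.2 and 4.92 FPKM in control. Of 30 further sarcomere and costamere genes with counts, 12 were highest in control replicate 1, against 20.7% of all genes tested. In osteoarthritis replicate 1, 14 of the 30 were highest, against 39.4% of all genes tested. Among those 14 were Tpm1, at 565 and 259 FPKM in osteoarthritis and 503 and 139 FPKM in control, and Tpm2, at 409 and 224 FPKM in osteoarthritis and 215 and 52.8 FPKM in control, tropomyosins that smooth muscle also uses. By edgeR's quasi-likelihood test 0 genes of these 3 lists were called in either direction. At an unadjusted p under 0.05 it had 0, 2 and 2 of the energy, excitation and sarcomere lists higher (12.2% of all genes) and 1, 1 and 0 lower (11.2% of all genes), out of 14, 15 and 29 tested. DESeq2 called 0, 1 and 1 higher (7.24% of all genes) and 1, 1 and 0 lower (8.26% of all genes). The likelihood ratio test called 0, 0 and 2 higher (6.31% of all genes) and 0, 1 and 0 lower (6.40% of all genes).

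The regulators that make muscle cells were near the limit of detection. Myod1, which commits cells to muscle, had 0 and 7 counts in osteoarthritis and 70 and 0 counts in control. Myog, which drives fusion into fibres, had 2 and 15 counts in osteoarthritis and 0 in both controls. Pax7, the marker of satellite cells, had 4 and 2 counts in osteoarthritis and 0 in both controls. Myod1 was thus highest in the library with the most sarcomere transcripts and Myog in the one with the most Myh7. The smooth muscle list, in contrast, was highest in osteoarthritis replicate 1 for 9 of 10 genes, against 39.4% of all genes tested. The sums of the smooth muscle list were 3858 and 1379 FPKM in osteoarthritis and 1844 and 545 FPKM in control. Its order of libraries was not that of the fast or shared skeletal genes. Cardiac and embryonic isoforms were low, with sums of 14.3 and 8.69 FPKM in osteoarthritis and 3.09 and 6.59 FPKM in control, and Nppa, a defining marker of heart muscle, was at 0 counts in all 4 libraries. No list of another cell type was highest in control replicate 1 by its sum except that of 11 erythroid and neutrophil genes, at 924 and 1887 FPKM in osteoarthritis and 66381 and 57025 FPKM in control. Most of that sum was Hbb, a globin, with 785 and 1067 FPKM in osteoarthritis and 54406 and 40889 FPKM in control, and 8 of the 11 genes were highest in control replicate 2 and 2 in control replicate 1.

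**Figure D5:**
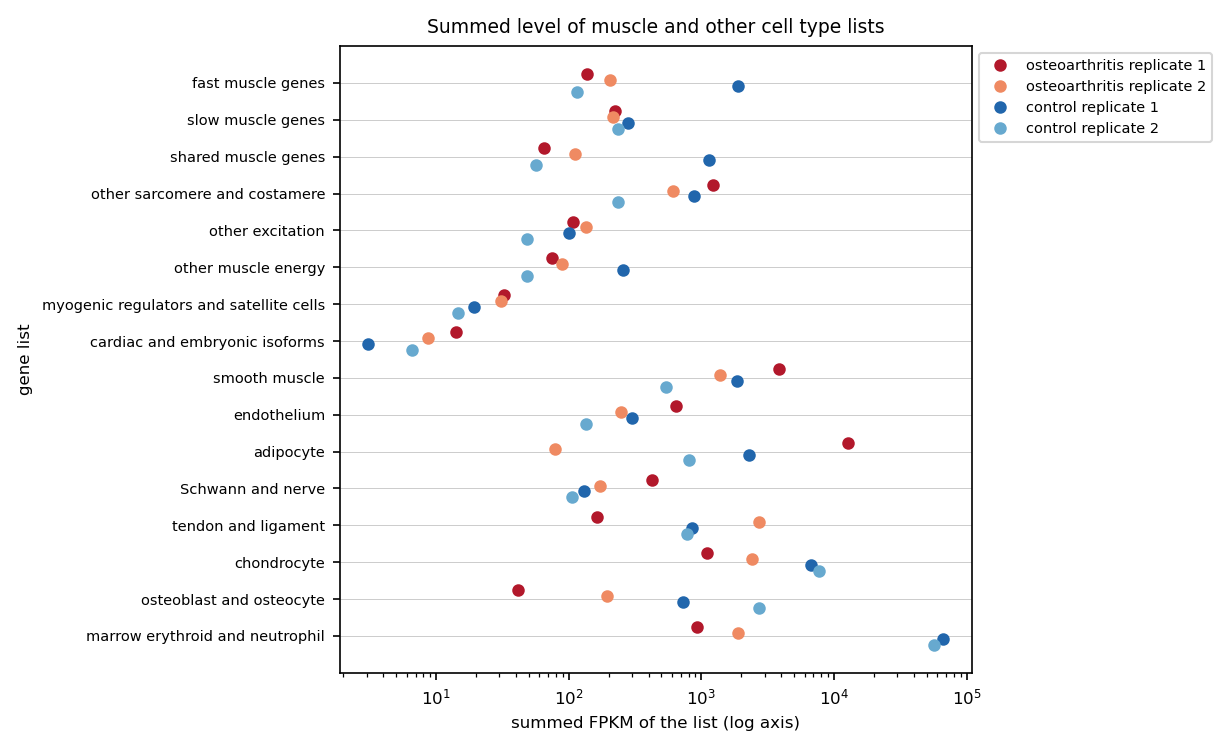
Summed FPKM (x axis, log scale) of the fast, slow and shared genes, of other muscle lists and of lists for other cell types (rows), 1 point a library. Control replicate 1 stands apart in the fast and shared rows, while osteoarthritis replicate 1 is highest in the adipocyte row and osteoarthritis replicate 2 in the tendon and ligament row.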

How the data were processed

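Polyadenylated RNA of cartilage was sequenced in 4 libraries, grouped by the label on disease state. Per the submitters' processing notes, fastp and TopHat were used and the build named is hg38, a human build, while the symbols are rat. The counter, annotation and strand setting were "not given in the sources used here". The authors deposited raw read counts and FPKM per gene, and all 67506 FPKM values above 0 equalled the count over a gene length and the column total within a relative difference of 1e-06, so FPKM is no independent measurement.

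Counts were fitted with edgeR 4.0.16 (filterByExpr, TMM, quasi-likelihood F test, two-sided, Benjamini-Hochberg over 15282 genes) in R 4.3.3. Alternatives used DESeq2 1.42.0, limma 3.58.1, further scalings, low-count filters, a trend fit (limma) of log2 deposited FPKM plus a pseudocount of 1 or 0.1, and fits without each library. The scripts were tested on simulated data. Standard errors are the log2 fold change over the root of F. Members, fibre classes and lists were chosen with earlier results of these data known. The rule for named genes took the 4 highest members by mean FPKM of each class, the 3 smallest p-values in each direction, the isoform pairs, the 6 myosin heavy chains, the regulators Myod1, Myog and Pax7, and the 2 highest genes of every other list, of which only those of the sarcomere, excitation and energy lists are printed. The other members are given to account for all 39. Cacng1, Cox6a2, Cav3, Nppa, Frzb, Grem1, Ankrd23 and Art1 were chosen after their values were seen. Replicate numbers follow accession order and pair nothing. Depth was 24492412 to 28270779 counts per library.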

Additional observations from a re-analysis of the deposited data

How the results depend on the processing

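No paired analysis was possible because the labels carry no replicate numbers. The medians of all members, of fast and of shared genes kept their sign under each scaling, filter and tool tried, and lost it without control replicate 1. Their size moved: over all members the median was -1.18 with no filter, -0.94 by limma-voom, and -0.44 and -0.57 by limma-trend with pseudocounts of 1 and 0.1. In the limma fits it was -1.56, -1.42 and -1.42 for fast and -0.85, -0.38 and -0.53 for shared genes. Over the fits that left out 1 library each, the median ran from -2.46 to 1.08 for all members, -3.71 to 0.98 for fast, -0.96 to 1.72 for slow, 0.14 to 3.86 for developmental and -2.43 to 1.47 for shared genes. The slow median, -0.01 with all libraries, was 1.26 with no filter, 0.49 by limma-voom, and 0.054 and 0.55 by limma-trend with pseudocounts of 1 and 0.1. The developmental median, 2.04, was 0.21 and 0.76 in those last 2 fits; the cause was not tested. Calls over all genes were 677 higher and 751 lower with no filter, 1107 and 1262 by DESeq2, 965 and 978 by the likelihood ratio test, and from 0 to 1297 higher and 0 to 1105 lower with 1 library left out. Members called were 5 lower with no filter, 6 lower by DESeq2, 3 lower by the likelihood ratio test, and 0 to 1 higher and 0 to 13 lower with 1 library left out. Log2 fold changes ran from -4.22 to 1.11 for Acta1, -4.04 to 0.82 for Ckm, -3.97 to 0.92 for Tnnc2, -3.23 to 4.26 for Myh4, -0.52 to 3.69 for Myh2 and -1.16 to 10.9 for Myh7 with 1 library left out, the last against a control at 0 counts, where the value depends on the prior count. Myh4 was at 0.40 by limma-voom and 0.33 by limma-trend with a pseudocount of 0.1. Of the 4-library sum of members, 9.08% and 11.4% were in osteoarthritis replicates 1 and 2, where the second was 14.8% in CPM, and 5.47% and 9.02% without Tpm3. Other scalings moved the median of all genes tested from 0.15 to 0.27 with library size alone and 0.05 with upper quartile factors. With 2 libraries a group, the spread within a group rests on a single difference, and genes under about 10 counts cannot be ordered between libraries.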

Other observations

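Genes nearly private to 1 library were counted by a rule chosen after the values were seen, at least 5 FPKM in that library and at least 4 times its level in each of the others. In the osteoarthritis libraries 202 genes (replicate 1) and 140 genes (replicate 2) met it, and in the control libraries 73 genes (replicate 1) and 71 genes (replicate 2). The 73 held 16 of the 39 members, from 6.83-fold over the next library for Myh1 to 19.9-fold for Pvalb, and the other 3 libraries held 0. Also among the 73 were Mb, Eno3, Cox6a2, a muscle subunit of the respiratory chain, Cacng1 and Cav3, the caveolin of muscle membranes. The 73 also held genes outside these lists, some known from muscle, such as Ankrd23 and Art1, and some from other tissues. Frzb, a secreted Wnt antagonist of cartilage, had 14.3 and 7.16 FPKM in osteoarthritis and 177 and 26.9 FPKM in control. Grem1, a secreted BMP antagonist, had 0.343 and 1.24 FPKM in osteoarthritis and 46.7 and 3.50 FPKM in control. No test was run on these counts.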
